A study of Homo sapiens with 6 samples.

Results

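The MYC target genes examined here are 55 named protein-coding genes, of 20007 protein-coding genes on chromosomes 1 to 22, X and Y. They were taken as a fixed set of gene names and not by their peaks, but were chosen with earlier results of these data known. For each gene, the H3K27ac peaks within 2500 bases to either side of the start of its canonical transcript were collected from 4 peak lists. A gene was described by whether it had a peak there, by the full length of its widest peak, and by the number of bases of the window that peaks covered.

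H3K27ac, the acetylation of lysine 27 on histone H3, was mapped by CUT&Tag in 2 human AML cell lines. Kasumi-1 carries the RUNX1::RUNX1T1 fusion gene, and MV4-11 carries a fusion of KMT2A. For each line there was 1 list from control cells (NC) and 1 list from cells with a short hairpin RNA against ANP32B (sh-ANP32B). By the study's methods the NC cells carried a control hairpin, while the labels describe their treatment as untreated. Which hairpin against ANP32B was used for CUT&Tag is not stated in the labels. The lists were called on merged replicates, so no difference has a replicate check, no test could be run, and every comparison describes these 4 lists only. All positions are on hg38.

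MYC is a transcription factor that pairs with MAX and binds the E-box, whose best known form reads CACGTG on both strands. It is known for driving cell growth, above all the making of ribosomes in the nucleolus, and also for raising mitochondrial activity, nucleotide and polyamine metabolism and entry into the cell cycle. H3K27ac marks active promoters and enhancers, and at a promoter it usually flanks the start on one or both sides.

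The promoter of each member was read from the hg38 reference genome, from 250 bases before the start to 50 bases after it. The letters CACGTG were in the promoter of 21 of the 55 members (38.2%), beside 8.76% of all protein-coding genes and 11.3% of the 5181 genes with a window peak in all 4 lists. Of these 21 members, 18 held the letters 1 time, 2 members held them 2 times, and CDK4 held them 3 times. The variant CATGTG, or CACATG as it reads on the other strand, was in 4 members (7.27%), beside 8.21% of all genes. The CCAAT letters, searched also as ATTGG, were in 22 members (40.0%) and in 36.1% of all genes. The letters TATAAA, searched also as TTTATA, were in 3 members (5.45%) and in 9.71% of all genes. Median GC content was 66.0% in the members and 63.7% in all genes. The membership was fixed by name and the E-box is the site of MYC, so these shares describe the set and are no finding about the peaks.

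The 250 bases before the start follow for the members that had a peak in all 4 lists and whose CACGTG letters all lay upstream of the start. They are shown as examples. SRM was chosen by a rule on the position of the E-box, applied among members picked largely for their peak differences between lists. SRM was among these for its MV4-11 difference of -1059 bases, so its peak values also chose it. The other 4 were added after their values were seen. None of the 5 was thus chosen on its sequence alone. They are SRM (spermidine synthase, minus strand, chr1:11060019-11060268), CDK4 (a cell cycle kinase, minus strand, chr12:57752311-57752560) and HSPE1 (the mitochondrial co-chaperonin, plus strand, chr2:197500129-197500378). The others are PRMT3 (a protein arginine methyltransferase, plus strand, chr11:20387466-20387715) and PUS1 (a pseudouridine synthase, plus strand, chr12:131929026-131929275). Each runs 5′ to 3′ along the gene's own strand, and capitals mark CACGTG.
SRM: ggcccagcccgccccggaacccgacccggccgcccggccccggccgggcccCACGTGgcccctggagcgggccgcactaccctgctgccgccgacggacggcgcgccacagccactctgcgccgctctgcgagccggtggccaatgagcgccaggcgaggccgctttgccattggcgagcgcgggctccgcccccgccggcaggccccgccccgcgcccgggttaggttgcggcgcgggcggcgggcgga
CDK4: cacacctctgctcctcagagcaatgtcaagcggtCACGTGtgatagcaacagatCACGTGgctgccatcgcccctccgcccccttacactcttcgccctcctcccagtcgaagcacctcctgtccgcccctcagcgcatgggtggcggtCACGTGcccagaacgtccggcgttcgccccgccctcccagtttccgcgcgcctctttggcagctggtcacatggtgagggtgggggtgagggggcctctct
HSPE1: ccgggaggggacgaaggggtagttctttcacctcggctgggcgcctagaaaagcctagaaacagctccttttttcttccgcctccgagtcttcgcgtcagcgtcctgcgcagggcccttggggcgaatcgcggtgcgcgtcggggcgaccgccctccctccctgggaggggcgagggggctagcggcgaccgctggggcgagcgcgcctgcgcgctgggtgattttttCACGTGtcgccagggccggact
PRMT3: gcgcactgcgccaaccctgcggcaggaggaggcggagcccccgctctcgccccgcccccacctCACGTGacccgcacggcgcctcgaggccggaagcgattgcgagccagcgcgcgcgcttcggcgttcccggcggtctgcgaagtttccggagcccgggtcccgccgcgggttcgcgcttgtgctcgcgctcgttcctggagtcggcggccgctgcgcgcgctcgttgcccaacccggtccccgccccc
PUS1: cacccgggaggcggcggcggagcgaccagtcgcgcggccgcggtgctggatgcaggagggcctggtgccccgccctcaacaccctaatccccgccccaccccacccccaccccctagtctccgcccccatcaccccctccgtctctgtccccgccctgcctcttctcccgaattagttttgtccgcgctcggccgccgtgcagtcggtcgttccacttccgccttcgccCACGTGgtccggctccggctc
The E-box began at position -199 in SRM, -187 in PRMT3, -22 in HSPE1 and -21 in PUS1, counted from the start. The nearest of the 3 in CDK4 began at -101.

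Most members had an H3K27ac peak in the window around their start, and more often so than genes at large. The Kasumi-1 control list had a window peak at 46 of 55 members (83.6%), beside 47.7% of all genes. After knockdown there were 48 such members (87.3%), beside 45.3% of all genes. The MV4-11 control list had a window peak at 39 members (70.9%), beside 35.8%. After knockdown 30 members had one (54.5%), beside 28.6%. The members thus stood above all genes in each list, and the MV4-11 knockdown list held the fewest of them.

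**Figure D1:**
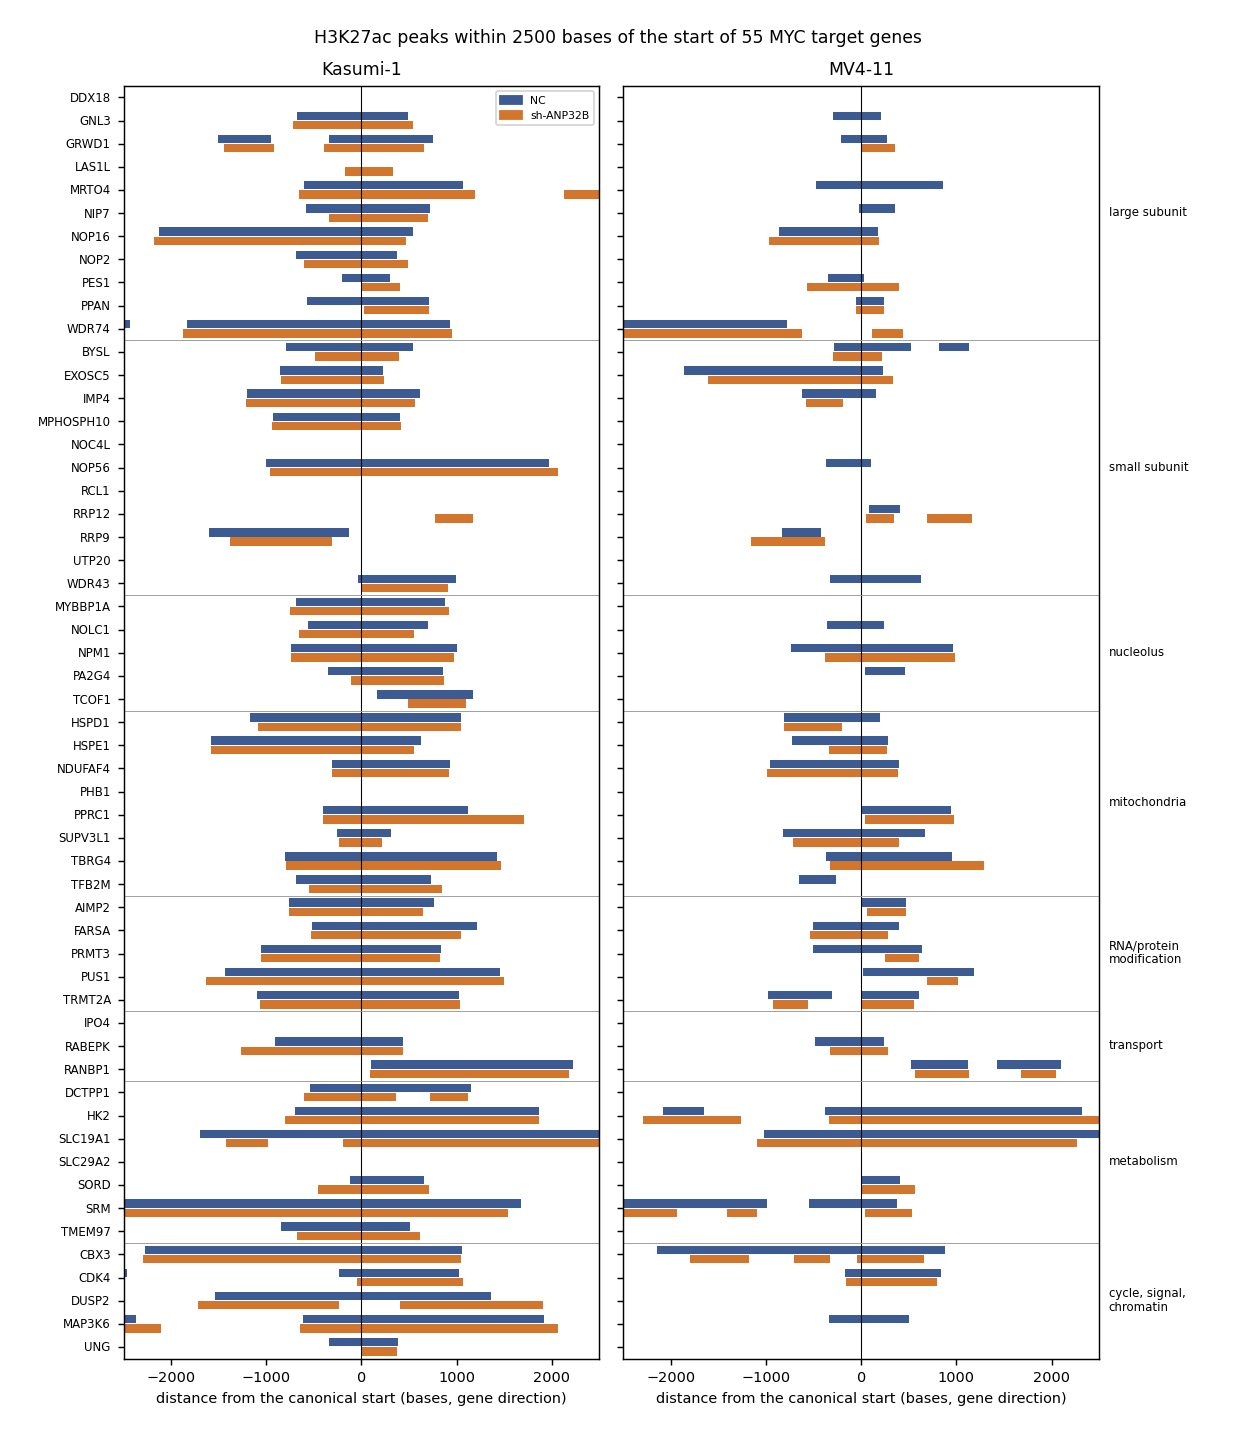
H3K27ac peaks in the windows of the 55 MYC target genes, 1 row per gene grouped by role, with the distance from the canonical start in bases along the gene on the x axis. Blue bars are NC peaks and orange bars sh-ANP32B peaks, cut off at the window's edge; the 7 empty rows are genes without a peak in any list, and 9 genes in MV4-11 have a blue bar without an orange one.

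The 55 members fell into 6 patterns of presence. A peak in all 4 lists was seen at 29 members (52.7%), beside 25.9% of all genes. Another 9 (16.4%) had a peak in both Kasumi-1 lists and in MV4-11 NC but none in MV4-11 sh-ANP32B, beside 7.66% of all genes. A further 8 (14.5%) had a peak in both Kasumi-1 lists and in neither MV4-11 list, beside 9.72% of all genes. These were DCTPP1, DUSP2, MPHOSPH10, MYBBP1A, NOP2, TCOF1, TMEM97 and UNG. LAS1L had a peak in Kasumi-1 sh-ANP32B alone, as had 0.515% of all genes. RRP12 had one in every list but Kasumi-1 NC, as had 0.15% of all genes. The remaining 7 members, DDX18, IPO4, NOC4L, PHB1, RCL1, SLC29A2 and UTP20, had no window peak in any list, as had 50.1% of all genes. For these 7, the nearest peak lay between 5847 and 198426 bases from the start over the 4 lists. The letters CACGTG were in the promoter of 4 of these 7, beside 38.2% of all members and 8.76% of all genes.

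Some windows serve more than 1 gene. At 15 members (27.3%) another protein-coding gene started on the opposite strand within 1000 bases, beside 10.0% of all genes. GNL3 and PBRM1 start 119 bases apart, NIP7 and COG8 208 bases apart, and MRTO4 and EMC1 281 bases apart. A peak there belongs to either start or to both, which a peak list cannot tell apart. Among the members themselves, HSPD1 and HSPE1 start head to head 539 bases apart. RANBP1 and TRMT2A start 1122 bases apart on opposite strands and run toward each other from these starts. Each pair shares its peaks and counts as 2 members below.

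In Kasumi-1 the knockdown list differed little from the NC list at these genes. None of the 46 members with an NC peak was lost, that is, left without any window peak in sh-ANP32B, while 6.79% of all genes with an NC peak were lost. However, 42 of the 46 had an NC peak of 1000 bases or more, and of all such genes 1.57% were lost. Of all genes with a shorter NC peak 21.3% were lost, beside 0 of 4 members. Of the 9 members without an NC peak, 2 were gained, LAS1L and RRP12, beside 1.6% of all genes without an NC peak. Among the 46 members with a peak in both lists, 30 had fewer bases covered in sh-ANP32B and 16 had more, against 47.2% and 51.5% of all genes. Most of these differences were small. At least 20% fewer bases were covered at 6 members, beside 15.8% of all genes, and at least 25% more, which is the same fold, at 4 members, beside 9.85%. The widest peak was shorter in sh-ANP32B at 30 of the 46, beside 48.3% of all genes. The median ratio of bases covered, sh-ANP32B over NC, was 0.983 for the members (log2 -0.03) and 1.00 for all genes. When peaks under 1000 bases were left out, 6 members were lost in Kasumi-1 and 1 was gained. Summed over the members, peaks covered 82651 bases in NC and 81151 in sh-ANP32B.

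In MV4-11 the members followed the whole list, in which most promoters had fewer bases covered after knockdown. Of the 39 members with an NC peak, 9 were lost, against 24.3% of all genes with an NC peak. They were GNL3, MAP3K6, MRTO4, NIP7, NOLC1, NOP56, PA2G4, TFB2M and WDR43. No member was gained among the 16 without an NC peak, beside 2.45% of all genes. Among the 30 members with a peak in both lists, 20 had fewer bases covered in sh-ANP32B, 9 had more and PPAN had the same number, against 75.6% fewer and 23.9% more over all genes. At least 20% fewer bases were covered at 12 members, beside 45.9% of all genes. At least 25% more were covered at 5 members, beside 8.8%. The widest peak was shorter at 20 of the 30, beside 75.9%. The median ratio was 0.886 for the members (log2 -0.17) and 0.828 for all genes (log2 -0.27). The summed cover of the members was 43860 bases in NC and 33220 in sh-ANP32B. Over the alternative settings the members' median log2 ratio lay between -0.26 and -0.02.

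**Figure D2:**
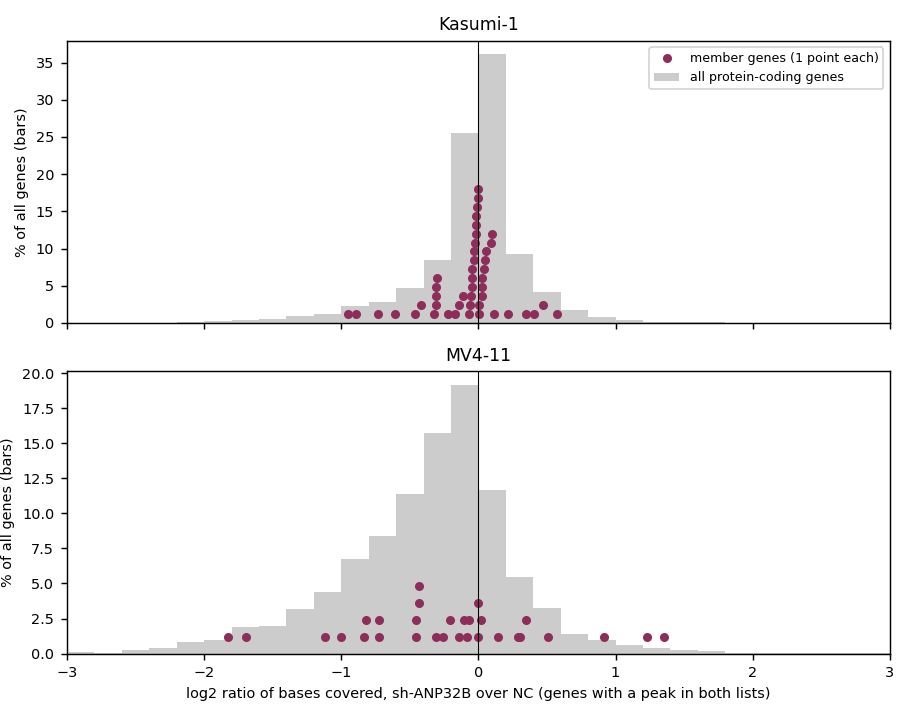
Log2 ratio of bases covered, sh-ANP32B over NC, in Kasumi-1 (top) and MV4-11 (bottom), for genes with a peak in both lists of a line; grey bars give the share of all genes in each bin in percent and each purple point is 1 member, stacked where points meet. In Kasumi-1 the 46 members gather around 0 (median -0.03), and in MV4-11 the 30 members spread around a median of -0.17.

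The members lost in MV4-11 were mostly those with short NC peaks. Their widest NC peak had a median of 501 bases, from 372 to 1331. The 30 members that kept a peak had a median of 1010 bases in NC, from 296 to 3546. With an NC peak under 1000 bases, 8 of 22 members were lost, beside 42.2% of all such genes. With an NC peak of 1000 bases or more, 1 of 17 was lost, beside 6.29% of all such genes. That 1 was MRTO4. The nearest MV4-11 sh-ANP32B peak to these 9 starts lay between 11329 bases (NOP56) and 56672 bases away (WDR43).

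Genes of large ribosomal subunit assembly made up 11 members, of which 9 had a peak in the Kasumi-1 control list and 8 in that of MV4-11. In MV4-11, 3 of the 8 were lost, beside 24.3% of all genes with an NC peak. Among the 5 that kept a peak, 3 had more bases covered in sh-ANP32B, beside 23.9% of all genes. Below, the value in NC comes before that in sh-ANP32B. MRTO4, which prepares the subunit for its stalk proteins, had 1674 and 2220 bases covered in Kasumi-1. In MV4-11 it had 1331 bases covered in NC and 0 in sh-ANP32B, the widest peak lost at any member. The extra cover in Kasumi-1 came in part from a second peak of 448 bases that began at 2128 bases past the start, at the edge of the window. GNL3, the nucleolar GTPase nucleostemin, had 1173 and 1256 bases in Kasumi-1, and 501 and 0 in MV4-11. At its most upstream coding start the difference was 0 in both lines, which also arises where neither list has a peak in the window. NIP7, an assembly factor of the subunit, had 1311 and 1050 bases in Kasumi-1, and 372 and 0 in MV4-11.

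PES1 went the other way in MV4-11. This scaffold of pre-rRNA processing had 506 and 410 bases in Kasumi-1, among the shortest cover of any member there, and 378 and 964 in MV4-11, where the sh-ANP32B peak was 2.55-fold longer. WDR74, which has a part in remodelling the early subunit, had 2840 and 2830 bases in Kasumi-1, and 1724 and 2191 in MV4-11. There, in NC, its only peak lay upstream and ended at -777, and in sh-ANP32B there was also a peak of 317 bases from 118 to 434. PPAN, an assembly factor, had 1275 and 688 bases in Kasumi-1, where the sh-ANP32B peak began 26 bases past the start. In MV4-11 its peak was the same in both lists, chr19:10106303-10106598, 296 bases long. LAS1L, part of the nuclease complex that cuts the spacer between the large rRNAs, had 0 and 507 bases in Kasumi-1 and none in MV4-11. DDX18, an RNA helicase of the nucleolus, had 0 bases in all 4 lists. GRWD1, a chaperone of a ribosomal protein, had 1641 and 1566 bases in Kasumi-1, and 478 and 354 in MV4-11. NOP16, an assembly factor, had 2674 and 2646 bases in Kasumi-1, and 1042 and 1152 in MV4-11. NOP2, an rRNA methyltransferase, had 1055 and 1091 bases in Kasumi-1 and none in MV4-11.

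Genes of the small ribosomal subunit and of pre-rRNA processing were also 11, with a peak at 7 in either control list. NOP56, a core protein of the box C/D snoRNPs that guide rRNA methylation, had the widest Kasumi-1 cover of this group, with 2970 bases in NC and 3031 in sh-ANP32B. In MV4-11 it had 477 and 0. WDR43, a factor that couples rRNA transcription to processing, had 1032 and 917 bases in Kasumi-1, and 951 and 0 in MV4-11. Both were thus kept in one line and lost in the other. BYSL, which is needed late in the making of the small subunit, had 1336 and 877 bases in Kasumi-1, and 1114 and 514 in MV4-11. It was the only member with at least 20% fewer bases in both lines.

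RRP9 and RRP12 were longer in MV4-11 sh-ANP32B. RRP9, a protein of the U3 snoRNP, had 1468 and 1063 bases in Kasumi-1, and 417 and 785 in MV4-11. All of its peaks lay upstream of the start, and PARP3 starts 459 bases away on the opposite strand. RRP12, which serves in the export of both subunits, had 0 and 402 bases in Kasumi-1, and 330 and 775 in MV4-11. Its Kasumi-1 sh-ANP32B peak, from 772 to 1173, overlapped one of its MV4-11 sh-ANP32B peaks, from 687 to 1166. The direction depended on the transcript, since the MV4-11 difference was 445 bases at the canonical start and -534 at the most upstream coding start of the gene. NOC4L, which forms part of the small subunit processome, had 0 bases in every list, as had RCL1 and UTP20. EXOSC5, a subunit of the RNA exosome, and the U3 snoRNP proteins IMP4 and MPHOSPH10 differed by 2, -44 and 27 bases in Kasumi-1. EXOSC5 had 1082 and 1084 bases there, and 2089 and 1944 in MV4-11. IMP4 had 1814 and 1770 bases in Kasumi-1, and its MV4-11 peak of 780 bases in NC was 390 bases long after knockdown. MPHOSPH10 had 1330 and 1357 bases in Kasumi-1 and none in MV4-11.

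Of 5 members that organise the nucleolus or act on rRNA transcription, all had a Kasumi-1 peak in both lists. In MV4-11, 3 had one in NC and only NPM1 had one in sh-ANP32B, while 24.3% of all genes with an NC peak were lost there. NPM1, the abundant nucleolar chaperone that is often mutated in AML, had 1743 and 1708 bases in Kasumi-1, and 1700 and 1373 in MV4-11. Its MV4-11 peak reached 739 bases upstream in NC and 384 in sh-ANP32B. NOLC1, a scaffold for snoRNPs, had 1256 and 1207 bases in Kasumi-1, and 598 and 0 in MV4-11. PA2G4, a growth-regulated RNA-binding protein, had 1215 and 980 bases in Kasumi-1, and 415 and 0 in MV4-11. TCOF1, which assists RNA polymerase I, had 1008 and 607 bases in Kasumi-1 and none in MV4-11. MYBBP1A, a repressor of that transcription, had 1565 and 1667 bases in Kasumi-1 and none in MV4-11.

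Mitochondrial proteins were encoded by 8 members. All but PHB1, which had 0 bases in the 4 lists, had a peak in both NC lists. HSPD1 and HSPE1 encode the chaperonin and its co-chaperonin and share a promoter, where peaks covered 2208 and 2138 bases in Kasumi-1, and 1010 and 611 in MV4-11. There, the end on the HSPD1 side was lost, so that the start of HSPD1 was under a peak in NC and not in sh-ANP32B, while the start of HSPE1 was under a peak in both. TFB2M, a mitochondrial transcription factor, had 1418 and 1397 bases in Kasumi-1, and 388 and 0 in MV4-11. That MV4-11 peak lay from -650 to -263, and CNST starts 195 bases from TFB2M on the opposite strand. PPRC1, a coactivator of mitochondrial genes, had 1523 and 2116 bases in Kasumi-1, and 947 and 943 in MV4-11. The added Kasumi-1 cover was all downstream, with the upstream edge at -405 in both lists. SUPV3L1, a mitochondrial RNA helicase, was 1 of 4 members with more cover in MV4-11 than in Kasumi-1 NC, with 566 and 456 bases in Kasumi-1, and 1498 and 1111 in MV4-11. NDUFAF4, an assembly factor of a respiratory complex, had 1234 and 1224 bases in Kasumi-1, and 1352 and 1371 in MV4-11. TBRG4, which binds mitochondrial RNA, had 2223 and 2265 bases in Kasumi-1, and 1323 and 1619 in MV4-11.

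The 5 members that modify RNA or protein or charge tRNA had a peak in all 4 lists. All 5 had fewer bases covered in MV4-11 sh-ANP32B than in NC, as had 75.6% of all genes with a peak in both lists. PUS1 had 2889 and 3131 bases in Kasumi-1, and 1162 and 328 in MV4-11. There, the stretch near the start was gone, since the NC peak ran from 21 to 1182 and the sh-ANP32B peak from 688 to 1015. PRMT3 had 1889 and 1886 bases in Kasumi-1, and 1148 and 354 in MV4-11, where the NC peak spanned -511 to 636 and the sh-ANP32B peak 254 to 607. The E-box of PRMT3 printed above was under the MV4-11 NC peak and outside the MV4-11 sh-ANP32B peak. The E-box of PUS1 lay outside both MV4-11 peaks, and in Kasumi-1 both E-boxes were under a peak in either list. The E-box of HSPE1, by contrast, was under a peak in all 4 lists. TRMT2A, a tRNA methyltransferase, and RANBP1, which binds the transport GTPase Ran, share their peaks and had 2117 and 2094 bases in Kasumi-1, and 1279 and 934 in MV4-11. The Kasumi-1 cover was 1 peak over the start of TRMT2A, and in MV4-11 it was 2 peaks in either list. The canonical start of RANBP1 was under no peak in any of the 4 lists. The nearest peak lay 101 and 90 bases from that start in Kasumi-1, and 520 and 566 in MV4-11. Whether a start is under a peak depends on the transcript chosen. AIMP2, a scaffold of the tRNA synthetase complex, had 1519 and 1405 bases in Kasumi-1, and 473 and 410 in MV4-11. FARSA, a tRNA synthetase subunit, had 1734 and 1576 bases in Kasumi-1, and 905 and 820 in MV4-11.

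Besides RANBP1, the transport genes were IPO4, an importin, with 0 bases in every list, and RABEPK, a Rab effector. RABEPK had 1341 and 1703 bases in Kasumi-1, and 722 and 604 in MV4-11. The downstream edge of its Kasumi-1 peak was at 435 in both lists, and the upstream edge was at -905 in NC and at -1267 in sh-ANP32B.

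**Figure D3:**
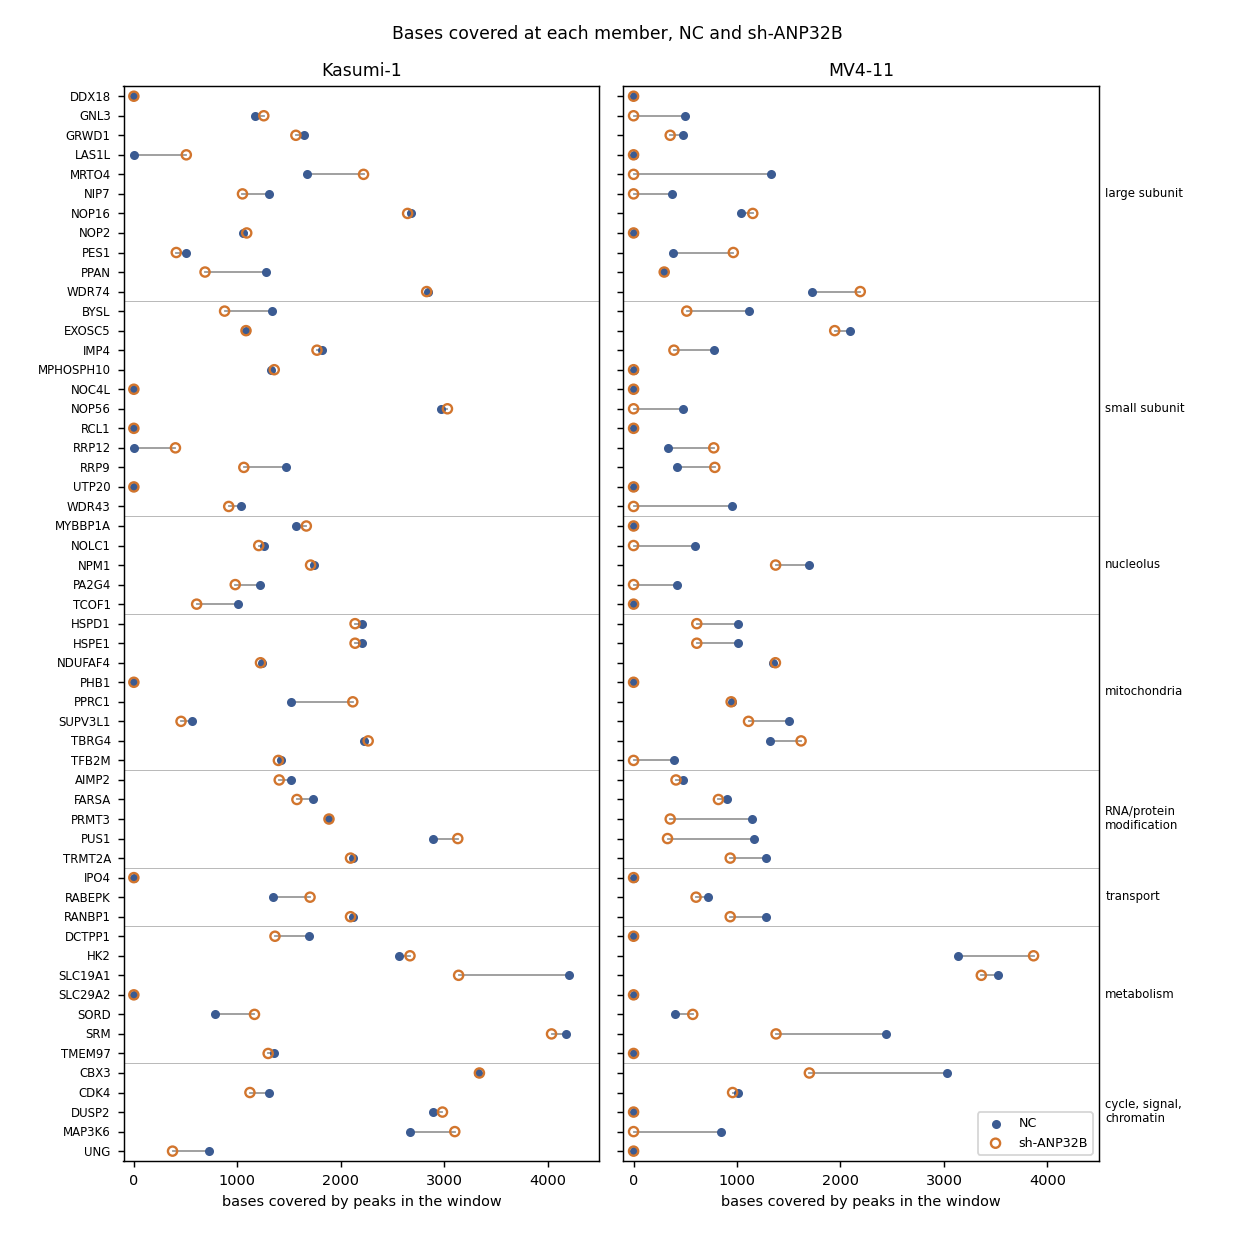
Bases of the window covered by H3K27ac peaks at each of the 55 members, in Kasumi-1 (left) and MV4-11 (right), with NC as filled blue points, sh-ANP32B as open orange points and a line joining the pair. In Kasumi-1 most pairs lie close together, and in MV4-11 the 9 lost members run to 0 while PES1, RRP9, RRP12, HK2 and WDR74 have the sh-ANP32B point on the right.

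Of the 7 metabolic and membrane transport genes, 6 had a peak in the Kasumi-1 control list and 4 in that of MV4-11, and SLC19A1 and SRM had the most bases covered of all members in Kasumi-1 NC. SRM makes spermidine, a polyamine, and its Kasumi-1 peak was 6411 bases long in NC and 6327 in sh-ANP32B, of which 4179 and 4037 bases lay in the window. In MV4-11 the window held 2436 bases in NC and 1377 in sh-ANP32B. Over the start itself, the MV4-11 NC peak ran from -550 to 378, and the nearest sh-ANP32B peak ran from 38 to 532, so that the start and the E-box at -199 were no longer under a peak. SLC19A1, the reduced folate carrier, had 4202 and 3139 bases in Kasumi-1, and 3520 and 3361 in MV4-11. Its Kasumi-1 difference of -1063 bases was the largest of any member in that line, and a peak of 444 bases stood apart upstream in sh-ANP32B. At the gene's most upstream coding start the difference was 0 in both lines, which also arises where neither list has a peak in the window. HK2, a hexokinase, had 2565 and 2669 bases in Kasumi-1, and 3133 and 3866 in MV4-11, with the most bases covered of any member in the MV4-11 knockdown list. Its MV4-11 difference was 733 bases in this window and -43 in a narrower one of 2501 bases in all. SORD, sorbitol dehydrogenase, had 785 and 1166 bases in Kasumi-1, and 402 and 572 in MV4-11. SLC29A2, a nucleoside transporter, had 0 bases in every list. DCTPP1, a nucleotide pyrophosphatase, had 1690 and 1364 bases in Kasumi-1 and none in MV4-11. TMEM97, a membrane protein of sterol handling, had 1357 and 1298 bases in Kasumi-1 and none in MV4-11.

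The last 5 members act in the cell cycle, signalling, chromatin and DNA repair. CBX3, a heterochromatin protein that also sits on active genes, had 3331 and 3340 bases in Kasumi-1. In MV4-11 it had 3027 bases in NC as 1 peak and 1699 in sh-ANP32B as 3 peaks, the widest of them 703 bases long. HNRNPA2B1 starts 999 bases from CBX3 on the opposite strand. MAP3K6, a stress kinase, had 2665 and 3102 bases in Kasumi-1, and 841 and 0 in MV4-11. CDK4 had 1306 and 1122 bases in Kasumi-1, and 1012 and 957 in MV4-11. With the most E-boxes of any member, it had log2 ratios of -0.22 (Kasumi-1) and -0.08 (MV4-11). The nearest of its E-boxes was under both MV4-11 peaks and under the Kasumi-1 NC peak, and outside the Kasumi-1 sh-ANP32B peak, which began at -52. DUSP2, a MAP kinase phosphatase, had 2895 and 2983 bases in Kasumi-1 and none in MV4-11. Its Kasumi-1 peak was 1 run of 2895 bases over the start in NC and was split in sh-ANP32B into peaks of 1500 and 1483 bases on either side of the start. Its Kasumi-1 difference was 88 bases in this window and -638 in the narrower one. UNG, the uracil-DNA glycosylase, had 722 and 374 bases in Kasumi-1, with the sh-ANP32B peak beginning 2 bases past the start, and none in MV4-11. Its Kasumi-1 difference was -348 bases in this window and 507 in a window of 5000 bases to each side.

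The start itself was less often under a peak after knockdown in MV4-11, as it was over all genes. In Kasumi-1 NC the start of 43 members was under a peak, and at 3 of them, DUSP2, PPAN and UNG, it was not in sh-ANP32B, beside 17.1% of all genes. In MV4-11 NC the start of 30 members was under a peak, and at 12 it was not in sh-ANP32B, beside 36.7% of all genes. These 12 were 7 of the lost members and HSPD1, IMP4, PPRC1, PRMT3 and SRM, which kept a peak elsewhere in the window. Where the start was under a peak in both lists, the reach to either side was compared. In Kasumi-1 the upstream reach was shorter in sh-ANP32B at 16 of 40 members (38.4% of all genes) and the downstream reach at 17 (39.1% of all genes). In MV4-11 the upstream reach was shorter at 10 of 18 members (68.8% of all genes) and the downstream reach at 9 (68.2% of all genes). The median change in MV4-11 was -25.5 bases upstream and -3.5 downstream for the members, beside -49.0 and -62.0 for all genes. Neither side of the start was favoured in these counts.

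Taking the lines side by side, 38 members had a peak in both NC lists. Of these, 20 (52.6%) had fewer bases covered in sh-ANP32B in both lines, beside 37.9% of all such genes, and these 20 included the lost genes NIP7, NOLC1, PA2G4, TFB2M and WDR43. HK2, SORD and TBRG4 had more bases in both lines, beside 9.76% of all such genes, though HK2 did not in the narrower window. At 9 members there were more bases in Kasumi-1 and fewer in MV4-11, beside 42.4% of all such genes. At 5 members, NDUFAF4, NOP16, PES1, RRP9 and WDR74, there were fewer in Kasumi-1 and more in MV4-11, beside 7.97%. The share with fewer bases in both lines was above that of all genes, but many of the Kasumi-1 differences behind it were of a few bases, such as -3 at PRMT3, -21 at TFB2M and -23 at RANBP1.

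Between the NC lists, members had more cover in Kasumi-1. A peak in Kasumi-1 NC but not in MV4-11 NC was seen at 8 of 46 members, beside 27.9% of all genes with a Kasumi-1 NC peak. The reverse was seen at 1 of 39, RRP12, beside 3.89%. Of the 38 members with a peak in both NC lists, 34 had fewer bases covered in MV4-11, beside 81.1% of all such genes. The 4 exceptions were EXOSC5, HK2, NDUFAF4 and SUPV3L1. The median log2 ratio, MV4-11 NC over Kasumi-1 NC, was -0.84 for the members and -0.58 for all genes. The lines differ in karyotype and come from separate cultures and libraries, which cannot be told apart here. The study's methods give the same culture medium for both lines.

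**Figure D4:**
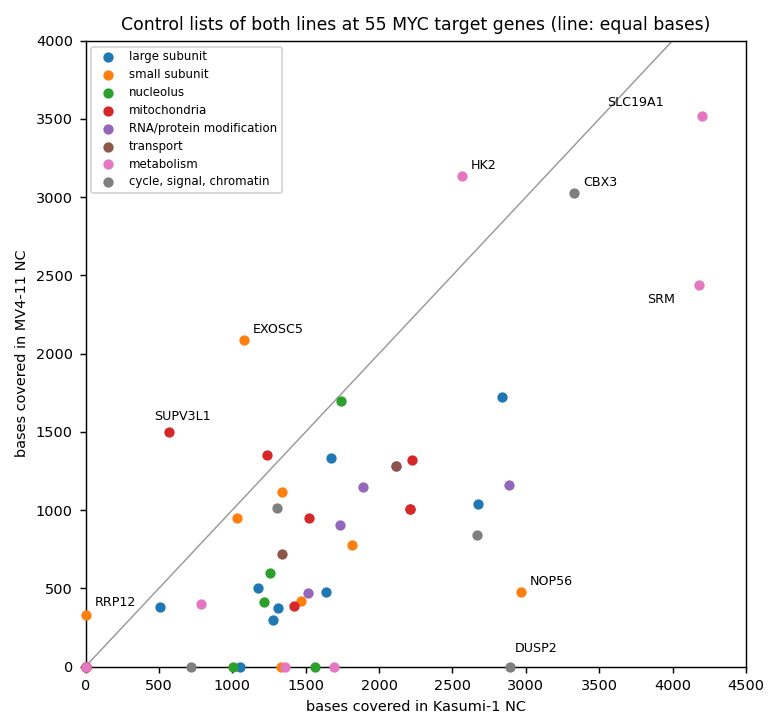
Bases covered in Kasumi-1 NC (x axis) against MV4-11 NC (y axis) at the 55 members, coloured by role, with a line at equal cover. Of the 38 members with a peak in both lists 34 lie below the line; points on the x axis are the 8 members with a Kasumi-1 NC peak only, and RRP12 alone lies on the y axis above 0.

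The members with and without the E-box letters were set apart after their values were seen. In Kasumi-1 the median log2 ratio of bases covered was -0.02 for the 16 members with CACGTG in the promoter and -0.03 for the 30 without. In MV4-11 it was -0.73 for the 11 members with CACGTG and -0.14 for the 19 without, beside -0.26 and -0.27 for all genes with and without the letters. The value of -0.73 is that of HSPE1, whose peaks are also those of HSPD1, a member counted without the letters. The values next to it among the 11 were -0.82 at SRM and -0.10 at EXOSC5, so this median hangs on 1 shared peak. The 11 genes did not move as one. BYSL, HSPE1, IMP4, PRMT3, PUS1 and SRM had log2 ratios from -1.82 (PUS1) to -0.73 (HSPE1), CDK4 and EXOSC5 had -0.08 and -0.10, and PES1, RRP12 and RRP9 had 1.35, 1.23 and 0.91. Lost in MV4-11 were 3 of 14 members with the letters and 6 of 25 without. Of all genes with an MV4-11 NC peak, 24.75% were lost with the letters and 24.3% without.

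**Figure D5:**
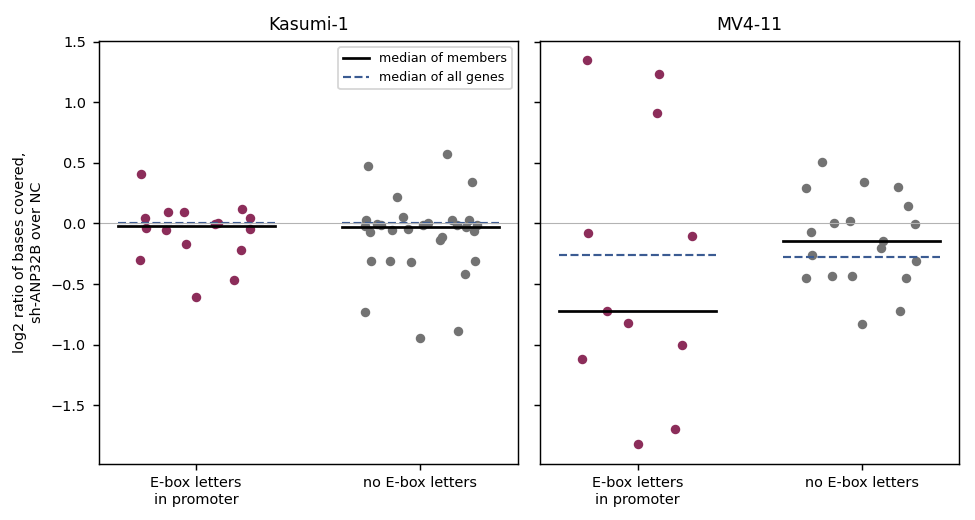
Log2 ratio of bases covered, sh-ANP32B over NC, for members with and without CACGTG in the promoter, in Kasumi-1 (left) and MV4-11 (right), 1 point per member with a peak in both lists. Black lines are medians of the members and dashed blue lines those of all genes; in MV4-11 the 11 members with the letters range from -1.82 to 1.35 around a median of -0.73, and the 19 without have a median of -0.14.

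Other genes of the pathway were counted in the same way. The MYC network was taken as 13 genes, MYC itself with its partners and antagonists. Of these, 7 (53.8%) had a peak in the Kasumi-1 control list, beside 47.7% of all genes. In the MV4-11 control list 5 (38.5%) had one, beside 35.8%. MYC had 3828 and 3843 bases covered in Kasumi-1, and 893 and 0 in MV4-11. It was the only network gene lost in either line, 1 of 5 in MV4-11, beside 24.3% of all genes with an NC peak. MXD1, a MAX partner that opposes MYC, had 0 and 403 bases in MV4-11 and was the only one gained. Of all genes without an MV4-11 NC peak, 2.45% were gained. The cell cycle genes MCM4, MCM5, PLK1 and PLK4 are usually listed with MYC targets. Each of these 4 had a peak in every list, as had 25.9% of all genes. All 4 had more bases in sh-ANP32B in Kasumi-1, by 18, 603, 128 and 41 bases in that order, and fewer in MV4-11. This combination was also the commonest over all genes, at 42.4% of those with a peak in both NC lists. There were 24 further growth genes known as MYC targets. Of these, 23 (95.8%) had a peak in both Kasumi-1 lists, beside 47.7% of all genes in NC and 45.3% in sh-ANP32B. The MV4-11 lists had one at 20 (83.3%) in NC and 16 (66.7%) in sh-ANP32B, beside 35.8% and 28.6% of all genes. In MV4-11, 5 of the 20 were lost (CAD, CCND2, FBL, RRS1 and WDR12), near the 24.3% of all genes, and RRN3 was gained.

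The lists themselves differed. On the main chromosomes they held from 22136 to 24523 peaks, and read depth is unknown because the lists carry no counts. The shortest Kasumi-1 peak was 357 bases long before knockdown and 354 after it, and the shortest MV4-11 peak 289 and 275. Median lengths were 1044 and 980 bases in Kasumi-1 against 815 and 742 in MV4-11. The part of these differences in the results was not tested. Of the blood and myeloid markers, SPI1 had a window peak in all 4 lists, PTPRC and LYZ in MV4-11, CD33 in Kasumi-1 and CEBPA in all but MV4-11 sh-ANP32B, while MPO had none. The T cell gene CD3E, the epithelial genes EPCAM and KRT18, the liver gene ALB and the fibroblast gene COL1A1 had none.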

How the data were processed

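H3K27ac CUT&Tag peak lists of 4 samples, 1 per group, were used. The other 2 samples were IgG libraries and were not used here. By the study's methods, the authors aligned reads to hg38, removed PCR duplicates, merged replicates and called peaks with MACS at a q-value threshold of 0.01. The submitters' processing notes name Bowtie2 2.4.4 and MACS3 3.0, which differ from the tools in the methods. Each deposited list holds peak positions, counted from 1, and peak lengths, in bases, without height, p-value or read count, so that depth is unknown. Use of IgG by the caller is not given in the sources used here.

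The canonical start of each protein-coding gene was taken from GENCODE v44, with 1 gene per symbol. Peaks with at least 1 base in the window of 2500 bases to either side were kept and merged bases counted with pandas 2.3.3 and NumPy 2.4.6 in Python 3.11.15. Figures were drawn with matplotlib 3.10.9. The log2 ratio was taken where both lists of a line had a peak. Shares over all 20007 genes served as background. The window code was tested on simulated peaks. Alternatives were windows of 2501 bases in all and of 5000 bases to each side, only peaks of at least 1000 bases, a common minimum length of 357 bases with a joining gap of 358, an equal number of 22136 peaks per list, at least 50% of a peak in the window, the most upstream coding start, 1 member per shared start and a fold of 1.5. Values in all 4 lists were given for members lost or gained, those with the 5 largest differences of each sign per line, the 3 highest and 3 lowest NC values, RANBP1 and TRMT2A, the shared start pair and the extremes of each role group, and for further members where a result used them. The members, gene lists and this rule were chosen with earlier results of these data known. Nothing was tested, as each group had 1 list. A further marker gene is not reported here.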

Additional observations from a re-analysis of the deposited data

Results flagged for a closer look

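At MRTO4 and RRP9 the lines differed in opposite directions. MRTO4 had 546 bases more covered in Kasumi-1 sh-ANP32B than in NC, and a difference of -1331 bases in MV4-11, where its peak was lost. RRP9 had a difference of -405 bases in Kasumi-1 and of 368 bases in MV4-11. With 1 list per group, neither difference between the lines was tested.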

How the results depend on the processing

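No paired analysis was possible because each group had 1 list and the labels carry no replicate numbers. The number of members lost in MV4-11 was 9 as reported and under the alternatives of window, peak number, peak overlap and start, 12 with a common minimum length and joining gap and 7 with peaks of at least 1000 bases. The genes were not the same throughout, since GNL3 had a difference of 0 at its most upstream coding start. A narrower window of 2501 bases in all gave 2 members with at least 25% more bases in Kasumi-1 (4 as reported), and one of 5000 bases to each side gave 7, with 1 member gained in Kasumi-1 (2 as reported) and 0 with a peak in MV4-11 NC but not in Kasumi-1 NC (1 as reported). The common length and gap gave 1 member gained in MV4-11 (0 as reported), 3 with more bases in MV4-11 (5 as reported) and 0 with an MV4-11 NC peak only. An equal number of peaks gave 1 member lost in Kasumi-1 (0 as reported), 2 gained in MV4-11 and 0 with an MV4-11 NC peak only. With peaks of at least 1000 bases, 17 and 10 members had a peak in MV4-11 NC and sh-ANP32B, and 26 had one in Kasumi-1 NC but not in MV4-11 NC (8 as reported). Under that setting 6 were lost and 1 gained in Kasumi-1, 2 had at least 20% fewer and 2 at least 25% more bases in Kasumi-1, and 2 had fewer and 1 more in MV4-11 (12 fewer as reported). The most upstream coding start gave 1 member gained in Kasumi-1, 3 with more bases in MV4-11, 0 with an MV4-11 NC peak only, and a difference of -534 bases at RRP12 in MV4-11. A window of 5000 bases gave 507 bases more at UNG in Kasumi-1. A fold of 1.5 gave 0 members with more bases in Kasumi-1 and 3 in MV4-11. The MV4-11 median log2 ratio of bases, -0.17 as reported, was -0.02 with peaks of at least 1000 bases, -0.12 in the narrower window, -0.25 in the wider one, -0.23 with an equal number of peaks and -0.26 at the most upstream coding start. The Kasumi-1 median stayed between -0.03 and -0.01. The narrower window turned the MV4-11 difference of HK2 to -43 and of SLC19A1 to 72 bases, and the Kasumi-1 difference of DUSP2 to -638, NOP56 to -36, WDR74 to 16, RANBP1 to 11 and CBX3 to -3. The most upstream coding start turned the Kasumi-1 difference of PES1 to 132 and of HSPD1 to 48 bases. Except where the construction leaves fewer peaks, the cause was not tested. A lost peak means only that none passed the caller, at a depth that is unknown.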
